A study of Arabidopsis thaliana and Lactuca sativa with 158 samples.

Results

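AT3G44215 and AT5G17125 are 2 Arabidopsis thaliana loci that the deposited tables list in the class Methylated_TE, the first under the joint name AT3G44215 and AT3TE64435, the second together with the transposable element AT5TE20395. They were taken by identifier from tables of signal per captured target, and they are 2 of the 67 targets listed for inflorescences and 2 of the 20 of their class there. The leaf tables list 77 targets and hold 1 of the 2, AT5G17125. RefSeq annotates both loci as pseudogenes without a symbol, AT3G44215 on chromosome 3 and AT5G17125 on chromosome 5. In the order of that gene table AT5G17125 lies between the protein-coding loci AT5G17120 and AT5G17130, and all 20 of the nearest genes, 10 on each side, are protein-coding. AT3G44215 lies between the transcribed pseudogene AT3G44212 and the protein-coding AT3G44220, and 15 of its 20 nearest genes are protein-coding and 4 are pseudogenes.

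Transposable elements in plants are held silent by DNA methylation. DDM1 is a chromatin remodeler that lets the methyltransferases reach nucleosome-bound DNA, and without it many elements are transcribed by RNA polymerase II into polyadenylated messages. RNA polymerases IV and V (Pol IV and Pol V) are plant-specific enzymes of RNA-directed DNA methylation: Pol IV makes precursors of small RNAs, and Pol V makes non-coding scaffold transcripts at the methylated loci themselves. Pol V transcripts are known to be rare and to lack a poly(A) tail.

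The RNA was read by target capture and nanopore long-read cDNA sequencing after ligation of an adapter to the 3′ ends, so that RNA with and without a poly(A) tail entered the libraries; the tables mark reads as pA or not. The inflorescence libraries came from immature flower buds of stages 1 to 12 of the genotypes ddm1 (n = 3), polv (n = 3), poliv / polv (n = 1) and Col-0 (n = 3). All 10 are of ecotype Columbia-0 and carry the label 35S::RUBY, a transgene for a red betalain pigment behind a viral promoter, which is not a target in their tables. The 112 leaf libraries are from plants 4 weeks old of the same ecotype. Groups that entered no test were always-red leaves with RUBY behind ZmUBQ (n = 4), always-green 35S RUBY leaves (n = 2) and Col-0 Green (n = 1). T1 leaves with 35S RUBY, also untested, were always green, always red, fully green or fully red (n = 1 each). The 35S construct RUBY_3Q was in always-green (n = 3), always-red (n = 3), fully green (n = 2) and fully red (n = 2) leaves. The 35S construct RUBY_fs was in always-green leaves (n = 6). The leaf comparisons used dcl1234 always-red leaves (n = 8; mutant in the Dicer-like enzymes that cut small RNAs) and Col-0 always-red leaves (n = 11), both with 35S RUBY; green parts (n = 13) and red parts (n = 13) of 35S RUBY leaves; fully green (n = 9) and fully red (n = 13) 35S RUBY leaves; and fully green (n = 9) and fully red (n = 9) leaves with RUBY behind ZmUBQ. The labels do not say whether replicates came from separate plants or pools, so p-values concern differences between these libraries only. Several leaf libraries share a line, and the main fits took them as independent. The linear model used below (limma) moderates the spread of each target with that of other targets of like mean signal. Its p-values therefore do not rest on the libraries' own spread for that target alone.

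The 5229 non-zero values by strand and pA mark in the inflorescence tables were whole multiples, within 0.001, of 1 step per library, and that step was taken as the signal of 1 read. Taking the values as reads per 1e6, the steps imply totals of 426615 to 2825377 reads per library, and the reads collapsed by molecular identifier summed to 26382 to 150094 over all targets. Col-0 replicate 2 stood apart: the construct target GUS held 62.5% of its collapsed signal, and its protein-coding targets summed to 14463.9, while Col-0 replicates 1 and 3 had 37514.7 and 38191.3. In the 3 polv libraries the construct target NosTerm held 30.1% to 48.0% of the signal. The part of these constructs in the results was not tested, and results are given below without Col-0 replicate 2 and with each library scaled to its protein-coding targets. No target of the inflorescence tables is DDM1 or the gene of the largest Pol IV or Pol V subunit, and none is a flower marker (0 of 6), so neither genotype nor tissue could be checked in these tables.

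Both elements were near the detection limit in Col-0 inflorescences and far higher in ddm1. AT3G44215 had 1012, 756 and 642 signal units of collapsed reads in the 3 ddm1 libraries (1295, 457 and 399 reads), 0, 1.16 and 0 in polv (0, 1 and 0 reads), 0 in poliv / polv, and 0.850, 2.96 and 49.2 in Col-0 (1, 5 and 21 reads). In such bulk samples fewer expressing cells and less RNA per cell cannot be told apart. Every ddm1 library was above every Col-0 library, and Col-0 replicate 3, the library with the lowest implied total, was far above the other Col-0 libraries. AT5G17125 had 546, 748 and 1352 units in ddm1 (699, 452 and 840 reads), 1.42, 0 and 0 in polv (4, 0 and 0 reads), 3.25 in poliv / polv (5 reads), and 8.50, 12.44 and 39.8 in Col-0 (10, 21 and 17 reads). Every ddm1 library was above every Col-0 library, and the polv and poliv / polv libraries were below both. A count of 0 allows up to 3 reads, which is 1.06 to 3.48 units in the polv libraries and 1.95 in poliv / polv, so the values of AT3G44215 in polv, in poliv / polv and in Col-0 replicate 1 are at or below that limit, and the values of AT5G17125 in polv and poliv / polv give no order. These limits and the intervals below cover counting error only.

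**Figure D1:**
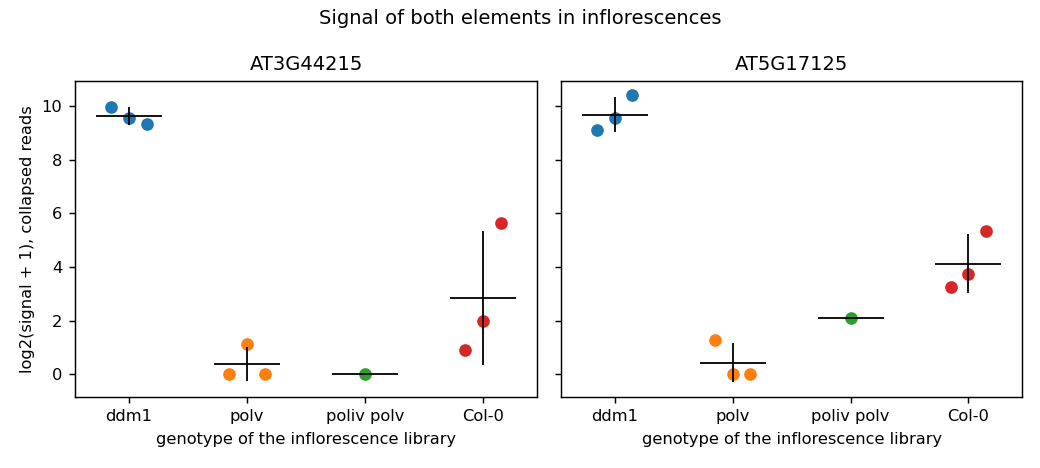
log2(signal + 1) of the reads collapsed by molecular identifier for AT3G44215 (left) and AT5G17125 (right) in each inflorescence library, by genotype. Points are libraries, horizontal lines are means and vertical lines are ± 1 SD (n = 3; poliv polv has 1 library). All 3 ddm1 libraries lie above all Col-0 libraries for both elements, and AT3G44215 in polv overlaps Col-0.

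In ddm1 both elements rose. AT3G44215 averaged 803 ± 189 units in ddm1 and 17.7 ± 27.3 in Col-0 (SD, n = 3 each), a change of 6.78 log2 units (SE 1.03, adjusted p = 2.37e-05). Fold changes are on the log2(signal + 1) scale, from limma with Benjamini-Hochberg adjustment over all targets tested, and targets with an adjusted p below 0.05 are called. AT5G17125 averaged 882 ± 419 units in ddm1 and 20.3 ± 17.1 in Col-0 (SD, n = 3 each), a change of 5.57 log2 units (SE 0.76, limma adjusted p = 9.27e-06). Of the 65 targets tested, 17 were called (26.2%), all higher in ddm1. Over the pooled reads the rate per implied total was 105 times that of Col-0 for AT3G44215 (exact 95% interval 71.7 to 159) and 54.5 times for AT5G17125 (40.9 to 74.1). Of the 27 Col-0 reads of AT3G44215, 21 were in replicate 3, and without that library the ratio was 410 (188 to 1118) for AT3G44215 and 73.4 (51.6 to 108) for AT5G17125.

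Neither increase rested on the Col-0 library dominated by GUS. Without Col-0 replicate 2 the log2 fold changes were 6.36 for AT3G44215 (limma adjusted p = 0.00883) and 5.38 for AT5G17125 (limma adjusted p = 0.00134). The size varied with the Col-0 libraries kept: AT3G44215 was at 5.81 without Col-0 replicate 1 and 8.19 without replicate 3, and AT5G17125 at 5.13 and 6.18, all called. With each library scaled to its protein-coding targets they were 6.23 for AT3G44215 and 5.00 for AT5G17125. Centring each library on the median of its tested targets lowered both by 2.08, to 4.71 for AT3G44215 (limma adjusted p = 0.00146) and 3.49 for AT5G17125 (limma adjusted p = 4.13e-04).

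Sense signal, pA signal and signal not marked pA all rose in ddm1 for both elements. Sense signal averaged 795 ± 186 units in ddm1 and 9.08 ± 12.5 in Col-0 for AT3G44215, and 778 ± 387 in ddm1 and 9.15 ± 10.3 in Col-0 for AT5G17125 (SD, n = 3 each). The log2 fold changes were 7.12 for AT3G44215 (SE 0.94, limma adjusted p = 4.27e-05) and 6.63 for AT5G17125 (SE 0.84, limma adjusted p = 3.36e-05), beside 25.4% of 63 targets called for sense reads. Signal marked pA averaged 370 ± 150 units in ddm1 and 0.283 ± 0.491 in Col-0 for AT3G44215, and 297 ± 41.3 in ddm1 and 2.24 ± 2.13 in Col-0 for AT5G17125. Its log2 fold changes were 8.17 for AT3G44215 (limma adjusted p = 4.39e-10) and 6.70 for AT5G17125 (limma adjusted p = 8.04e-09), with 31.6% of 57 targets called. For AT3G44215 the Col-0 libraries together held 1 read marked pA, so this signal entered the test through ddm1.

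For the signal not marked pA the log2 fold changes were 6.21 for AT3G44215 (limma adjusted p = 1.10e-06) and 5.03 for AT5G17125 (limma adjusted p = 1.01e-06), with 27% of 63 targets called. Without Col-0 replicate 2 the value of AT3G44215 was 5.93 and no longer called (limma adjusted p = 0.0520), while that of AT5G17125 was 4.85 (limma adjusted p = 0.00978).

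Antisense reads gave unlike values for the 2 elements, a difference that was not itself tested. For AT3G44215 the antisense signal was 10.9, 9.93 and 3.22 units in ddm1 and 0, 0 and 25.8 in Col-0. These groups overlapped, and the change of 1.45 log2 units (SE 1.07, limma adjusted p = 0.388) was not called, beside 23.3% of 60 targets called for antisense reads. Without Col-0 replicate 3, which held all 11 antisense reads of AT3G44215 in Col-0, the value was 3.03 (limma adjusted p = 0.0182). For AT5G17125 the antisense signal was 64.8, 111 and 135 units in ddm1 and 5.10, 9.48 and 18.8 in Col-0. Every ddm1 library was above every Col-0 library, with a change of 3.21 log2 units (SE 1.01, limma adjusted p = 0.00874). It was no longer called without Col-0 replicate 1 (2.80, limma adjusted p = 0.0554), and without Col-0 replicate 2 it was 3.19 (limma adjusted p = 0.0484).

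For AT5G17125 the antisense and pA shares of the ddm1 libraries lay apart from those of the Col-0 libraries, the antisense shares also beyond their counting intervals. Antisense reads were 11.9%, 14.8% and 10.0% of its collapsed reads in the ddm1 libraries, against 60.0%, 76.2% and 47.1% in Col-0 (6 of 10, 16 of 21 and 8 of 17 reads). The exact Clopper-Pearson 95% intervals reached 18.4% at most in ddm1 and began at 23.0% or above in Col-0. Reads marked pA were 46.5%, 40.0% and 24.9% in ddm1, against 10.0%, 9.52% and 11.8% in Col-0 (1 of 10, 2 of 21 and 2 of 17 reads). Their intervals overlapped: that of ddm1 replicate 3 was 22.0% to 27.9%, and the upper limits in Col-0 were 44.5%, 30.4% and 36.4%. For both shares all 3 ddm1 libraries lay on 1 side of all 3 Col-0 libraries, and the exact two-sided permutation test gave p = 0.1, the smallest that 3 against 3 libraries allow. In the uncollapsed reads the pA shares still did not overlap (43.9%, 31.0% and 18.4% in ddm1, against 2.99%, 2.04% and 0.518% in Col-0), but the antisense shares did: 9.62%, 14.9% and 7.90% in ddm1, against 10.2%, 92.9% and 44.6% in Col-0 (exact permutation p = 0.2).

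AT3G44215 gave too few reads in Col-0 for such a comparison of shares. Its antisense share was 1.08%, 1.31% and 0.501% in ddm1, against 0 of 1, 0 of 5 and 11 of 21 reads in Col-0, where the last is 52.4% (exact 95% interval 29.8% to 74.3%). Its pA share was 53.4%, 41.6% and 39.8% in ddm1; in Col-0 the 1 read of replicate 1 was marked pA and none of the 26 reads of the other replicates was. The exact two-sided permutation test gave p = 1 for both shares of AT3G44215. Tests of shares on collapsed reads in ddm1 against Col-0 numbered 6, 3 for each element, and with 20 regroupings none could fall below p = 0.1; adjusted over the 6 by Benjamini-Hochberg, the 4 exact p-values of 0.1 became 0.15.

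**Figure D2:**
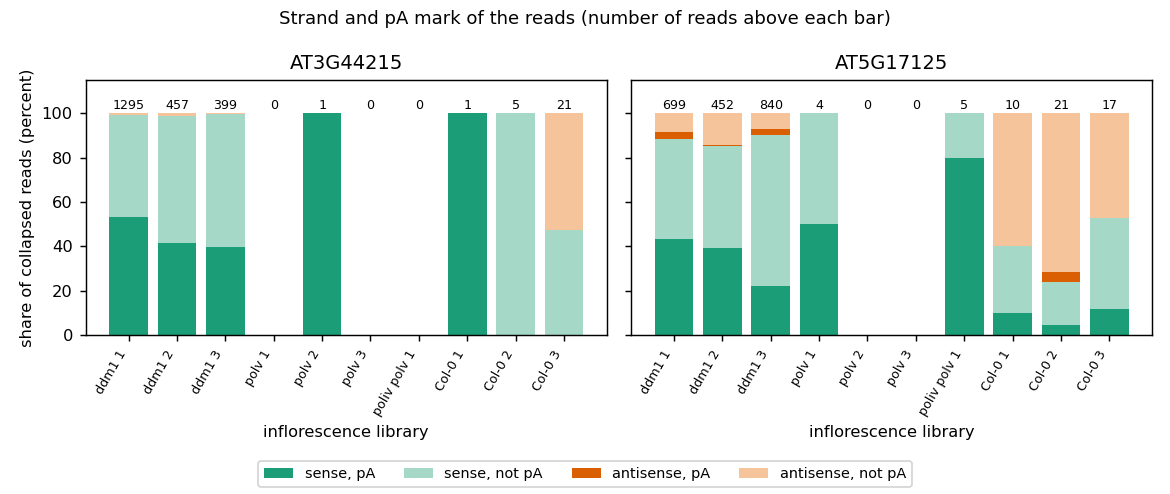
Share of collapsed reads by strand and pA mark (percent) in each inflorescence library for AT3G44215 (left) and AT5G17125 (right); the number above each bar is the number of reads, and a library with 0 reads has no bar. For AT5G17125 antisense reads (orange) make up 10.0% to 14.8% in ddm1 and 47.1% to 76.2% in Col-0.

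Reads counted as full-length were rare for both elements. AT3G44215 had 112, 6 and 5 full-length collapsed reads in ddm1, which is 8.65%, 1.31% and 1.25% of its collapsed reads, and 0 in the 3 Col-0 libraries. AT5G17125 had 6, 3 and 4 in ddm1, which is 0.858%, 0.664% and 0.476%, and 0 in Col-0. All of these reads were sense. For AT5G17125 the share marked pA was 6 of 6, 3 of 3 and 3 of 4, and for AT3G44215 it was 83 of 112, 1 of 6 and 2 of 5. The 3 ddm1 libraries lay above the Col-0 libraries for both elements (exact permutation p = 0.1, the smallest possible), but at the full-length shares seen in ddm1 the 27 and 48 Col-0 reads of AT3G44215 and AT5G17125 could not show a difference.

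In polv AT5G17125 fell, and AT3G44215 did not pass the test. AT5G17125 averaged 0.472 ± 0.817 units in polv and 20.3 ± 17.1 in Col-0 (SD, n = 3 each), and all polv libraries were below all Col-0 libraries. The log2 fold change was -3.69 (SE 0.83, limma adjusted p = 0.00138). AT3G44215 averaged 0.387 ± 0.670 units in polv and 17.7 ± 27.3 in Col-0, with 1 polv library above the lowest Col-0 library, and a change of -2.47 log2 units (SE 1.02, limma adjusted p = 0.0856). Each element had reads in 1 polv library only, so both entered this test through Col-0. Of the 59 targets tested, 16 were called (27.1%), 3 higher and 13 lower in polv. Without Col-0 replicate 2 the number called was 43 of 62, and both elements were among them: AT5G17125 at -3.88 (limma adjusted p = 0.00131) and AT3G44215 at -2.90 (limma adjusted p = 0.0224). Scaled to the protein-coding targets the values were -3.66 for AT5G17125 (limma adjusted p = 0.0127) and -2.57 for AT3G44215 (limma adjusted p = 0.196). AT5G17125 was at -3.07 without Col-0 replicate 3 (limma adjusted p = 0.00919). The polv values were near the detection limit, so these sizes depend on the 1 added before the logarithm. With 0.1 added AT5G17125 was at -6.04 and AT3G44215 at -4.49. With 10 added AT5G17125 was at -1.39 and AT3G44215 at -0.97. In both settings AT5G17125 was called and AT3G44215 was not.

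The result for AT3G44215 turned on single libraries. It was called without Col-0 replicate 1 (-3.45, limma adjusted p = 0.00266) and in the table of all reads (-6.47, limma adjusted p = 9.24e-04), and it was -1.07 without Col-0 replicate 3 (limma adjusted p = 0.460). In collapsed reads, 1 read over the 3 polv libraries stood against 27 over the 3 Col-0 libraries, a rate ratio of 0.0259 (exact 95% interval 6.32e-04 to 0.157); without Col-0 replicate 3 the 1 read stood against 6, a ratio of 0.101 (0.00220 to 0.835). For AT5G17125 the reads were 4 in polv and 48 in Col-0, a ratio of 0.0582 (0.0152 to 0.159), and 0.0785 (0.0201 to 0.222) without Col-0 replicate 3.

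Of the 48 Col-0 reads of AT5G17125, 30 were antisense and 5 were marked pA. The 4 polv reads of AT5G17125 were all sense, 2 of them marked pA, and the 5 reads in poliv / polv were all sense, 4 of them marked pA. No antisense read of either element was found in the 3 polv libraries or in poliv / polv, while the 3 Col-0 libraries together held 30 of AT5G17125 and 11 of AT3G44215. Against a limit of 3 reads over the polv group, the pooled Col-0 antisense rate was 14.3-fold higher for AT5G17125 and 5.25-fold higher for AT3G44215. The Col-0 counts were taken as exact, so these values are not lower bounds. All 11 antisense reads of AT3G44215 came from Col-0 replicate 3, so without that library Col-0 had 0 and no ratio can be given. For AT5G17125 the ratio without that library was 12.1-fold, from the other 22 reads. The antisense signal of AT5G17125 fell in the test (limma adjusted p = 0.00327), beside 23.5% of 51 targets called. Its signal not marked pA fell too (log2 fold change -3.71, SE 0.81, limma adjusted p = 2.51e-04), beside 29.3% of 58 targets. Both signals entered the test through Col-0, as polv had no antisense read and reads not marked pA in 1 library only. The direction was thus fixed, and the p-values rest mainly on the Col-0 spread and that of other targets.

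The sense and pA signals of AT5G17125 were not called in polv against Col-0. Sense signal had a change of -2.44 log2 units (limma adjusted p = 0.0832), beside 16.1% of 56 targets called, and without Col-0 replicate 2 it was called at -2.88 (limma adjusted p = 0.0136). Signal marked pA was 0.708, 0 and 0 units in polv and 0.850, 1.18 and 4.69 in Col-0, with a change of -1.25 log2 units (limma adjusted p = 0.533), beside 9.09% of 44 targets called. Sense signal of AT3G44215 had a change of -2.12 log2 units (limma adjusted p = 0.171), which was -2.38 and called without Col-0 replicate 2 (limma adjusted p = 0.0370). The other 3 parts of AT3G44215 were above 0 in fewer than 3 of these 6 libraries and were not tested.

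Set directly against each other, ddm1 was above polv for both elements. The log2 fold change was 9.26 for AT3G44215 (SE 0.44, limma adjusted p = 1.18e-06) and 9.26 for AT5G17125 (SE 0.53, limma adjusted p = 2.57e-06), with 53.8% of 65 targets called. Both elements were near the detection limit in polv, so these sizes depend on the 1 added before the logarithm. With 0.1 added they were 11.7 for AT3G44215 and 11.7 for AT5G17125. With 10 added they were 6.27 for AT3G44215 and 6.31 for AT5G17125. In reads, 2151 in ddm1 stood against 1 in polv for AT3G44215, a rate ratio of 4044 with an exact 95% interval of 725 to 159808. For AT5G17125, 1991 in ddm1 stood against 4 in polv, a ratio of 936 (365 to 3438). Each of the 4 read classes was called higher in ddm1 for both elements. The shares of targets called were 59.3% of 59 for pA reads and 55.6% of 63 for reads not marked pA. They were 48.4% of 62 for sense and 46.7% of 60 for antisense reads. In polv each element had reads in 1 library only, and neither had antisense reads. Both therefore entered these fits, in total and by class, through ddm1, where they were high. The direction of these calls was thus fixed by the rule for testing a target. Scaled to the protein-coding targets the log2 fold changes were 8.80 for AT3G44215 and 8.67 for AT5G17125. The comparisons with Col-0 and this one share libraries.

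Whether the 2 elements moved by different amounts could not be decided with 3 libraries a group and with both elements near the detection limit in polv. The log2 signal of AT3G44215 minus that of AT5G17125 averaged -0.06 ± 0.98 in ddm1, -0.05 ± 1.19 in polv and -1.27 ± 1.39 in Col-0 (SD, n = 3 each). The exact two-sided permutation test gave p = 0.3 for ddm1 against Col-0, p = 0.3 for polv against Col-0 and p = 1 for ddm1 against polv, where 0.1 is the smallest p that 3 against 3 libraries allow. The signal is not per length, so this difference is read only between genotypes. It also depends on the 1 added before the logarithm. In ddm1 against Col-0 it changed by 1.22, and with 10 added by 0.38 (exact permutation p = 0.7). In polv against Col-0 it changed by 1.22, and with 10 added by 0.43 (exact permutation p = 0.4).

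In ddm1 against Col-0 both elements lay in the middle of their class. Of the 17 other Methylated_TE targets tested in ddm1 against Col-0, 15 were called higher and 0 lower, with a median log2 fold change of 5.41 beside 0.49 over all 65 targets tested. AT3G44215 ranked 7 and AT5G17125 ranked 9 of the 19 tested; the highest other was AT4TE20070 at 9.11 and the lowest AT4TE23185 at -1.79. In polv against Col-0, 10 of the 12 other targets of the class that were tested were called lower and 0 higher, with a median of -3.31 beside -0.48 over all 59 targets. There AT2G02210 was lowest at -5.08 and AT4TE20095 highest at -0.89. Counted from the highest value, AT3G44215 ranked 3 of the 14 tested in polv against Col-0, nearer to 0 than most of the class, and AT5G17125 ranked 10. AT3G44215 had only 0.850 and 2.96 units in Col-0 replicates 1 and 2, which limits how far it could fall on this scale. Its rank is therefore no measure of a smaller response. In ddm1 against polv all 16 others that were tested were called higher, from 3.57 for AT4TE20090 to 10.73 for AT4G07965, with a median of 8.12 beside 0.95 over all targets. AT3G44215 ranked 8 and AT5G17125 ranked 7 of the 18 tested there. Targets of the class at 0 in polv could enter the comparisons with polv only through Col-0 or ddm1, where they were higher. The counts there are therefore of the targets tested, not of the 20 listed in the class. Some targets of the class overlap and share reads, so these counts, medians and ranks are not of independent loci.

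The other classes had other medians. In ddm1 against Col-0 the median log2 fold change was 0.46 over 15 protein-coding targets, 0.29 over 10 RdDM_locus targets, 0.47 over 5 Unmethylated_TE targets and -0.16 over 11 phasiRNA targets, with 0 called by limma in each and 0 at an unadjusted p below 0.05. In polv against Col-0 these medians were -0.40 over 14, -0.38 over 10, 1.14 over 5 and -0.48 over 11 targets of the same classes, with 1 RdDM_locus and 1 Unmethylated_TE target called lower. Of the 5 Construct targets tested in each, 0 were called in ddm1 against Col-0 (median 1.52) and 3 were called higher in polv against Col-0 (median 4.59). In ddm1 against polv more targets outside the class were called: 8 of 15 protein-coding targets higher (median 0.95), 1 of 10 RdDM_locus targets higher, 2 of 5 Unmethylated_TE targets higher and 3 lower, 3 of 6 Construct targets lower, and 0 of 11 phasiRNA targets. Of the 16 genes listed as silencing machinery (Argonautes, Dicer-like and RNA-dependent RNA polymerase genes and others), 6 were tested in inflorescences: 0 were called in ddm1 against Col-0 (median 0.39) and 0 in polv against Col-0 (median -0.37). For these 6, 0 reached an unadjusted p below 0.05 in either comparison, while 3 were called higher in ddm1 against polv (median 0.78).

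**Figure D3:**
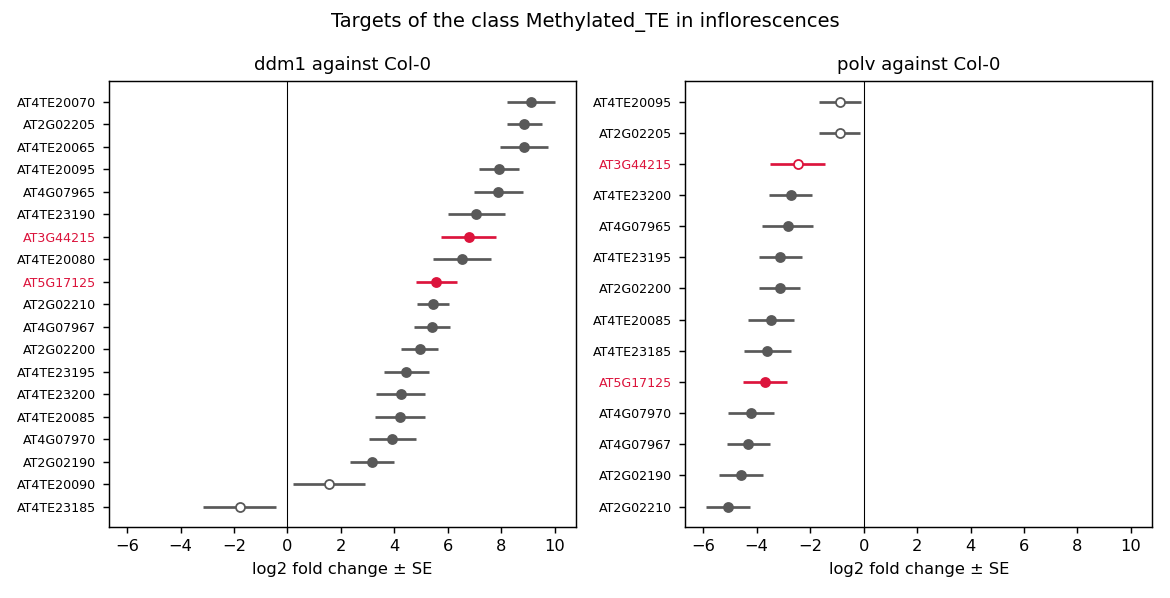
log2 fold change ± SE of every tested target of the class Methylated_TE in ddm1 against Col-0 (left, 19 targets) and polv against Col-0 (right, 14 targets), with AT3G44215 and AT5G17125 in red. Filled points were called (limma adjusted p below 0.05). AT3G44215 at 6.78 and AT5G17125 at 5.57 sit in the middle of the ddm1 panel, and AT3G44215 at -2.47 is not called in polv.

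In ddm1 the full-length share of both elements was low for their class. Among the 15 other Methylated_TE targets with at least 50 collapsed reads over the ddm1 libraries, a limit chosen after the data were seen, the antisense share ran from 1.099% to 99.5% (median 6.40%). AT3G44215, at 1.02% of 2151 reads, was at the low end of this range: 14, 15 and 14 of the others were above it in the 3 ddm1 libraries taken singly. AT5G17125, at 11.8% of 1991 reads, was exceeded by 6. The full-length share of AT5G17125 was 0.653%, below 14 of the 15, where the median of the others was 32.8%. That of AT3G44215 was 5.72%, below 13, but 112 of its 123 full-length reads came from ddm1 replicate 1. Without that library its share was 1.29%, below 14 of the 15. The pA shares of 48.3% for AT3G44215 and 35.9% for AT5G17125 lay inside the range of the others (30.2% to 78.6%). Some of these targets overlap and share reads, so no test was made.

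The elements also differed in how many reads stood behind each collapsed read. The ratio of all reads to collapsed reads was 15.8, 14.5 and 13.4 for AT3G44215 in ddm1, and 18.9, 18.2 and 17.9 for AT5G17125. Pooled over ddm1 the ratio of AT5G17125 was 18.2, above all 15 others (6.75 to 15.0), and that of AT3G44215 was 14.8. For AT3G44215 the single collapsed read in polv stood for 1 read, and poliv / polv had none, against ratios of 28.0, 28.4 and 14.6 in Col-0. For AT5G17125 the ratio was 1.75 in the 1 polv library with reads (4 collapsed reads) and 1.40 in poliv / polv (5 collapsed reads), against 16.7, 9.33 and 22.7 in Col-0.

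Over the 10 inflorescence libraries the pattern of AT3G44215 was most like that of AT4G07965 (Pearson r = 0.99), AT2G02200 (0.97) and AT4TE23200 (0.97), out of 65 other targets. That of AT5G17125 was most like AT4TE20085 (0.98), AT4G07965 (0.98) and AT4G07967 (0.98). Between the 2 elements r was 0.96. All of these are Methylated_TE targets, and the coefficients describe log2(signal + 1) values that share libraries and follow the split between ddm1 and the rest.

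In leaves AT5G17125 was above 0 in 59 of the 112 libraries, mostly at a few reads. For 20 of the 112 no antisense signal is listed, so their values and zeros are of sense reads only. The leaf tables of all reads are not collapsed by molecular identifier, and the signal of 1 read was estimated at 0.243 to 5.54 units from values rounded to 2 decimals. AT5G17125 was at 0 in 53 libraries, at about 1 to 3 reads in 33 and at about 10 or more in 23, with a median of 0.735 units and a highest value of 277. Of the 23 libraries with about 10 or more reads, 18 had tables that give both strands. In 15 of these 18 all reads came from 1 strand, sense in 11 and antisense in 4, and in 14 over 95% of the signal lay in a single column of strand and pA mark. In 1 of the 18 most of the signal was marked pA. How many molecules these reads stand for is not known from the leaf tables; in ddm1 inflorescences 1 collapsed read of AT5G17125 stood for 17.9 to 18.9 reads. Full-length collapsed reads were listed for this element in 22 leaf libraries, were above 0 in 20 and reached 4.91 units at most.

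The highest leaf values came from several groups. In fully green 35S leaves 2 of 9 libraries had 277 and 138 units, 2 of the 13 libraries of green parts had 238 and 136, and the highest Col-0 always-red library had 160. In the small groups that entered no test, AT5G17125 was at 0 in all 4 always-red ZmUBQ libraries, in both 35S always-green libraries, in the 1 library labelled Col-0 Green and in 3 of the 4 T1 libraries, the fourth of which, fully red, had 59.4. The T1, RUBY_3Q and RUBY_fs libraries list sense signal only, so a 0 in them does not cover antisense reads. Among the libraries with the construct RUBY_3Q it was 81.5 and 0 in fully green, 141 and 0 in fully red, 14.2, 0 and 0 in always-red and 0.34, 0 and 0 in always-green leaves. In the 6 always-green libraries with RUBY_fs it was 0 in 5 and 23.8 in 1. High and zero values stood side by side in most groups.

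**Figure D4:**
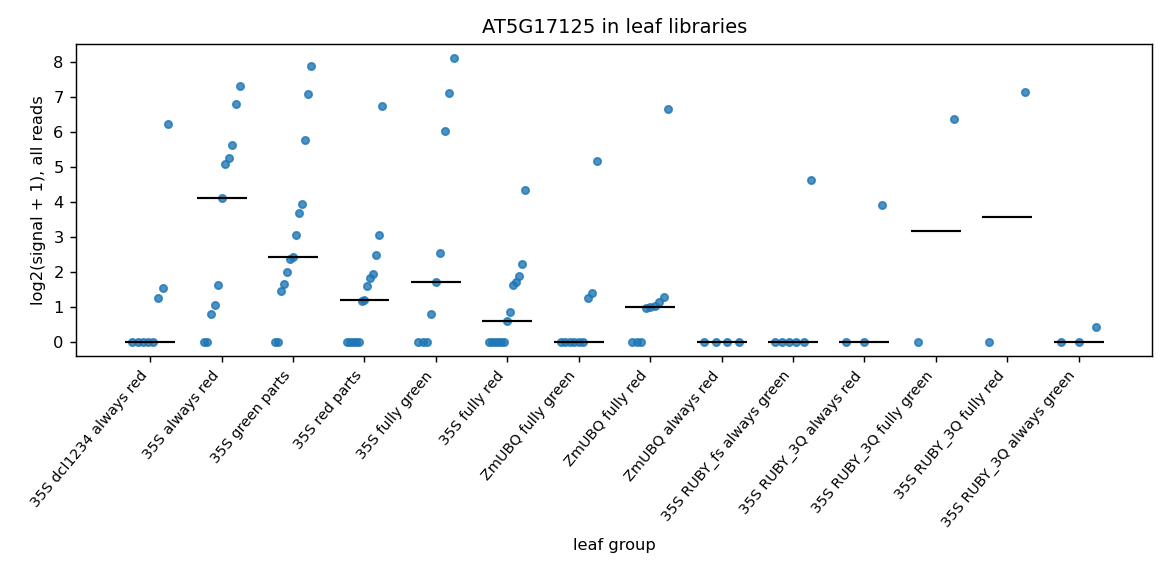
log2(signal + 1) of AT5G17125 in the table of all reads for each leaf library, by group; points are libraries and lines are medians. Groups of 1 library and the 2 always-green 35S libraries (both at 0) are not drawn. Values of the RUBY_3Q and RUBY_fs groups are of sense reads only. Most groups hold libraries at 0 beside 1 or a few high ones, up to 277 units.

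AT5G17125 was called by limma in 0 of the 4 leaf comparisons, and its unadjusted p was below 0.05 in 0 of them. In dcl1234 always-red leaves its lowest, median and highest values were 0, 0 and 74.8 units (above 0 in 3 of 8 libraries), against 0, 16.3 and 160 in Col-0 always-red leaves (9 of 11). The change of -2.29 log2 units (SE 1.18) had an unadjusted p of 0.0630 and an adjusted p of 0.111 in limma, beside 48.3% of 60 targets called. By the numbers in the names of the deposited files the leaf libraries fall into sets, and the 8 libraries labelled dcl1234 form a set of their own, so the genotype and the set cannot be told apart. They are of lines MK072 and MK073, and no line holds both genotypes, so genotype and line cannot be told apart either. Of the mutated genes DCL4 is a target: its signal was 3481, 4071 and 7453 (lowest, median, highest) in dcl1234 leaves and 1314, 3731 and 5685 in Col-0 leaves, a difference that was not called (limma adjusted p = 0.153), and whether the captured stretch is changed in the mutant is not given in the sources used here.

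Between green and red leaf tissue the values overlapped. Green parts of 35S leaves had 0, 4.36 and 238 units (lowest, median, highest; above 0 in 11 of 13), against 0, 1.29 and 107 in red parts (8 of 13), a change of 1.64 log2 units (SE 0.98, limma adjusted p = 0.655) beside 1.75% of 57 targets called. These libraries come from 2 sets of file numbers. Within the first the difference in mean log2 signal was 2.43 (4 against 4 libraries, exact permutation p = 0.257) and within the second it was 1.29 (9 against 9, exact permutation p = 0.242). Fully green 35S leaves had 0, 2.25 and 277 units (6 of 9), against 0, 0.51 and 19.3 in fully red leaves (7 of 13), a change of 1.91 log2 units (SE 1.19, limma adjusted p = 0.710) beside 1.67% of 60 targets. Within the sets the difference was 1.78 (4 against 4, exact permutation p = 0.257) and 2.25 (5 against 9, exact permutation p = 0.116).

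With the ZmUBQ promoter the change was below 0 but smaller than its SE, so it gives no contrast of sign. The ZmUBQ libraries are of another set of file numbers than the 35S leaves compared above, so promoter and set cannot be told apart. Fully green leaves had 0, 0 and 35.2 units (above 0 in 3 of 9), against 0, 1.00 and 101 in fully red leaves (6 of 9), a change of -0.47 log2 units (SE 0.99, limma adjusted p = 0.752) beside 1.96% of 51 targets called. The class as a whole was no more changed: among the other Methylated_TE targets tested 0 of 7 were called between green and red parts, 0 of 9 between fully green and fully red 35S leaves and 0 of 3 with ZmUBQ, and 0 of these had an unadjusted p below 0.05. In dcl1234 against Col-0, 1 of 8 was called higher and 2 lower.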

How the data were processed

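Per the labels' protocols, total RNA was extracted with TRIzol, a 3′ adapter was ligated, and cDNA from a template-switching reverse transcriptase was barcoded and pooled before probe capture and nanopore sequencing. The submitters' processing notes name TAIR10 and cutadapt without versions. The authors deposited normalised signal per target, split by strand and pA mark, for all reads, full-length reads and reads collapsed by molecular identifier; the scaling factor is not given in the sources used here. The percent columns in some deposited leaf tables were not used; shares in percent were computed from read numbers. The 36 lettuce libraries hold neither element and were not used.

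Signal was tested as log2(signal + 1) with limma 3.58.1 (R 4.3.3, trend on the mean), since the deposited values are normalised signal, not counts. All targets whose number of non-zero libraries reached the size of the smaller group were tested. The fit was tested on simulated data for targets well above the detection limit. That test does not cover values near the limit, such as those of both elements in polv. Shares were compared by exact permutation (Python 3.11.15) with exact 95% binomial intervals; the limit for a count of 0 is 3 reads. Named targets are the 2 elements, for each the 3 targets most like it, the extremes of the class in each inflorescence comparison, and the checks of mutated genes. The elements, lists and tests were chosen with earlier results of these data known. Pseudocount, filter, scaling, read table, single libraries and blocks were varied. Neighbouring genes are from RefSeq TAIR10.1, whose coordinates were not used.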

Additional observations from a re-analysis of the deposited data

Results flagged for a closer look

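AT5G17125 was tested for a single library far from the rest of its group in the 5 leaf groups of 4 to 10 libraries that held any signal, and the gap below the highest library was large against the range of the group in 5 of 5. Chance flags about 1 group in 20 where values are normally distributed; that rate was not determined for groups made up mostly of zeros and a few reads, so the number of groups says nothing about chance. The values were 74.78 units in dcl1234 always-red leaves, 277.04 in fully green 35S leaves (where the next library had 138.13), 23.77 in always-green leaves with RUBY_fs, 35.23 in fully green ZmUBQ leaves and 100.67 in fully red ZmUBQ leaves. Each is a signal of all reads, not collapsed by molecular identifier, and that with RUBY_fs is of sense reads only.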

How the results depend on the processing

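The calls of both elements in ddm1 against Col-0 and in ddm1 against polv kept their direction and side of the threshold under every alternative. That of AT5G17125 in polv against Col-0 did so under every alternative that gave it a value. In ddm1 against Col-0 the log2 changes ran from 4.36 to 8.19 for AT3G44215 and from 2.66 to 6.18 for AT5G17125. In ddm1 against polv they ran from 4.36 to 13.12 for AT3G44215 and from 2.66 to 12.95 for AT5G17125. In polv against Col-0 they ran from -7.02 to -1.39 for AT5G17125. The values of 4.36 and 2.66 are from full-length collapsed reads. Full-length reads of both elements were 0 in every Col-0 and polv library, so the direction of those fits was fixed. AT3G44215 in polv against Col-0 was called in the table of all reads (-6.47), and leaving out 1 replicate at a time gave -3.45 to -1.07. Leaving out each Col-0 replicate, chosen after seeing the data, gave 4.94 to 7.76 for AT3G44215 reads not marked pA, 0.66 to 3.03 for its antisense reads and 2.80 to 3.65 for antisense reads of AT5G17125 in ddm1 against Col-0. In polv against Col-0 it gave -2.93 to -1.07 for sense reads of AT3G44215 and -2.88 to -1.64 for those of AT5G17125. The difference between the elements in ddm1 against polv was 0.17 in all reads, against -0.003 in collapsed reads; the cause was not tested. AT3G44215 and AT5G17125 could not be fitted in the full-length tables of polv and Col-0, nor AT5G17125 in that of leaves, where too few libraries had a value.

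Centring on the median target gave 50 targets called in ddm1 against Col-0 (16 higher, 34 lower, beside 17 and 0 as deposited) and 55 in ddm1 against polv (20 higher, 35 lower, beside 29 and 6), and scaling to protein-coding targets, chosen after seeing the data, gave 20 higher and 12 lower in ddm1 against polv. Scaling gave 6 higher and 12 lower in polv against Col-0, and centring 6 and 14, beside 3 and 13; in dcl1234 against Col-0 centring gave 12 higher and 13 lower, beside 18 and 11. Full-length tables allowed tests of fewer targets: 2 of 31 (all full-length reads) and 2 of 31 (collapsed) were called in polv against Col-0, beside 16 of 59; 23 of 48 in ddm1 against polv, beside 35 of 65; 19 of 20 in dcl1234 against Col-0, beside 29 of 60; 0 of 16 between green and red parts, beside 1 of 57; and 0 of 18 with ZmUBQ, beside 1 of 51. Leaving out 1 replicate gave 13 to 43 targets in polv against Col-0. In fully green against fully red 35S leaves 3 targets were called with line, 7 with the set of file numbers and 8 with the replicate block as a term, beside 1.

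The labels repeat replicate numbers across groups, in leaves with the line, without saying what a shared number stands for. Same-numbered deviations correlated above 0.1 in 2, 1 and 1 of 3 pairs in ddm1 against Col-0, polv against Col-0 and ddm1 against polv, and in leaves in 8 of 13 pairs of green and red parts (-0.256 to 0.55; 9 positive), 5 of 9 of fully green and fully red 35S leaves and 1 of 9 with ZmUBQ. In none of these comparisons did every pair exceed 0.1, so the block was not used for the reported values; in green and red parts 7 of 26 libraries correlated best with their own number. With the replicate block both elements were still called in ddm1 against Col-0, 18 targets were called beside 17, and AT3G44215 in polv against Col-0 had a limma adjusted p of 0.0556. AT5G17125 was not called in leaves under any of the 4 to 7 alternatives of each comparison (limma adjusted p from 0.0768 to 0.868). Line and batch terms could not be fitted for dcl1234, whose libraries form a set of their own and share no line with the Col-0 libraries. Read ratios without Col-0 replicate 3 and class shares without ddm1 replicate 1 were also chosen after seeing the data. Depth limits AT3G44215 in Col-0 and polv, where 1 to 21 reads and 0 or 1 read stand behind each value.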
